A study of Mus musculus with 3 samples.

Results

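Peaks of the transcription factor PU.1 were examined at 10 cathepsin genes, of 21887 protein-coding genes in the RefSeq table of GRCm38.p6 (mm10). The genes, Ctsa, Ctsb, Ctsc, Ctsd, Ctse, Ctsh, Ctsk, Ctsl, Ctss and Ctsz, were chosen by name within a protease family, with earlier results of these data known. Another 12 cathepsin genes are outside this choice and are described further below. A peak was assigned to a gene where it overlapped the RefSeq span or the 20 kb on either side by at least 1 bp. Their windows held 42 distinct peaks of the 74494 in replicate 2, 3 of the 6169 in replicate 3 and 33 of the 49385 intervals of the merged list.

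Both ChIP-seq libraries came from i660BM, a pro-B cell line of C57BL/6 origin kept in IL-7 that carries a PU.1 construct switched on by doxycycline, here at 70 ng/ml for 24 h. Chromatin was precipitated with the rabbit polyclonal PU.1 antibody T-21. The single input sample was not analysed here, and whether it was the control for peak calling is not stated in the labels. Uninduced cells are not among the 3 samples, so binding that depends on induction cannot be told apart from binding that does not. The labels do not say whether replicates 2 and 3 came from separate cultures, nor what genotype the line has beyond the construct. Peak lists hold no expression values, so the pro-B identity of the line was not checked against marker genes, and a peak says nothing of whether a cathepsin was made.

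Cathepsins are proteases that work in the acidic interior of endosomes and lysosomes. They are made as inactive proenzymes, are delivered to the lysosome largely by mannose 6-phosphate receptors, and are activated there by cleavage. Most belong to the papain-like cysteine proteases, Ctsd and Ctse are aspartic proteases, and Ctsa is a serine carboxypeptidase. In B cells, dendritic cells and macrophages they degrade captured proteins and the invariant chain, steps that come before peptides are loaded on MHC class II. PU.1 (Spi1) is an ETS-family factor of myeloid and B cells that recognises a purine-rich site around the bases GGAA.

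All 10 cathepsin genes had a replicate 2 peak in the window, but 84.2% of protein-coding genes did, so this count does not set them apart. A replicate 3 peak lay in the window of 4 genes, Ctsb, Ctsk, Ctss and Ctsz (40.0%, exact Clopper-Pearson 95% interval 12.2 to 73.8, counting error only), against 24.1% of protein-coding genes. The same 4 genes had a shared region, the merged interval of overlapping peaks from both libraries, against 24.2% of protein-coding genes. Of the 12 other cathepsin genes, 2 (16.7%) had one, so the share depends on which cathepsins are counted. The background share lies inside the interval around 40.0%. That interval treats the 10 genes as independent draws, which a chosen list is not, and it holds no spread between libraries. Ctsk and Ctss are neighbours on chromosome 3 and count through a single region, so they are not independent and the 4 genes rest on 3 distinct regions. An interval of the merged list, made in a way the labels do not state, lay near all 10 genes, against 76.1% of protein-coding genes.

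The count follows the width of the window. In the gene spans alone, 2 of 10 genes had a shared region (Ctsb and Ctsz), against 12% of protein-coding genes. With 50 kb on each side, 8 of 10 did, all but Ctsd and Ctsl, against 37.8%. Among the genes gained, only at Ctsc was the cathepsin gene the nearest to the added replicate 3 peak. At Ctsa the added peaks were nearest to Pltp and Pcif1, and at Ctse and Ctsh they lay in Rab7b and Morf4l1. Counted for the nearest gene only, with 20 kb, 3 of 10 had a shared region, against 15.8%.

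**Figure D1:**
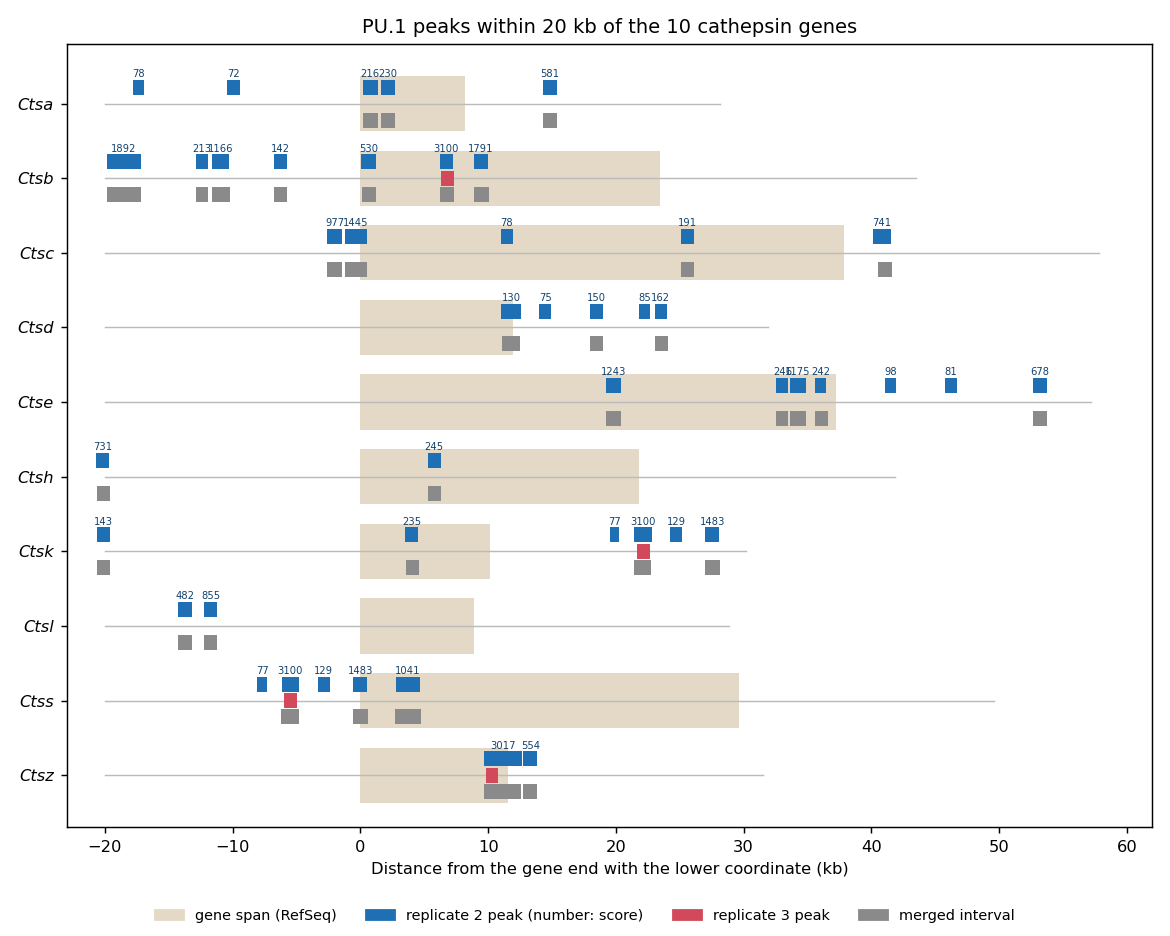
Position of each peak relative to the lower-coordinate end of each gene, in kb, with the gene span shaded, replicate 2 peaks in blue with their scores, replicate 3 peaks in red and merged intervals in grey. Red marks appear at Ctsb, Ctsz and once between Ctsk and Ctss, where the same peaks are drawn in both rows.

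Each peak carries a single deposited value, the authors' MACS score, taken here to be 10 times the negative log10 of the p-value. Deeper libraries give higher scores, so scores are compared only within a list. Replicate 2 scores ran from 70.0 to 3233 with a median of 232, and replicate 3 scores from 70.0 to 3100 with a median of 136. In replicate 2, 2656 peaks stood at 3100 or above, 2431 of them at exactly 3100, so the order at the top of that list is uncertain.

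Across the windows, the 42 distinct replicate 2 peaks scored 71.9 to 3100 with a median of 245. Each gene had 2 to 7 of them, with a median of 5, against a median of 3 over all protein-coding genes. Windows were of similar size in both sets, with medians of 56.9 kb and 57.2 kb. Ctsb and Ctse had the most peaks, 7 each, a number above that of 85.0% of protein-coding genes. Their windows, of 63.5 and 77.2 kb, were longer than these medians. Per 100 kb of window, Ctsk had the most (11.95), then Ctsb (11.02), and Ctse had 9.07, against a median of 4.05 over all protein-coding genes. Ctsh, Ctsl and Ctsz had 2 peaks each. Of the 42 peaks, 24 lay wholly outside the spans of all 10 genes, and a cathepsin gene was the nearest protein-coding gene to 35.

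The highest replicate 2 score in the window ordered the genes from Ctsb, Ctsk and Ctss at 3100, through Ctsz at 3017, Ctsc at 1445, Ctse at 1243, Ctsl at 855, Ctsh at 731 and Ctsa at 581, to Ctsd at 162. Over all protein-coding genes with a peak the median of this score was 1009.7. Ctsb, Ctsk and Ctss stood above 87.6% of protein-coding genes, counting genes without a peak as lowest, and Ctsd above 25.3%. The value of Ctsk and Ctss is the same peak, which lay outside Ctsk and nearer to Ctss. The highest peak of the Ctsa window lay in Pltp, and that of Ctsh was nearer to Rasgrf1. Inside the genes, the highest scores were 235 at Ctsk, 229.7 at Ctsa and 245 at Ctsh. With a single value per gene in 1 library there is no replicate spread for the order of the genes, and replicate 3 has a value at 4 of the genes only.

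**Figure D2:**
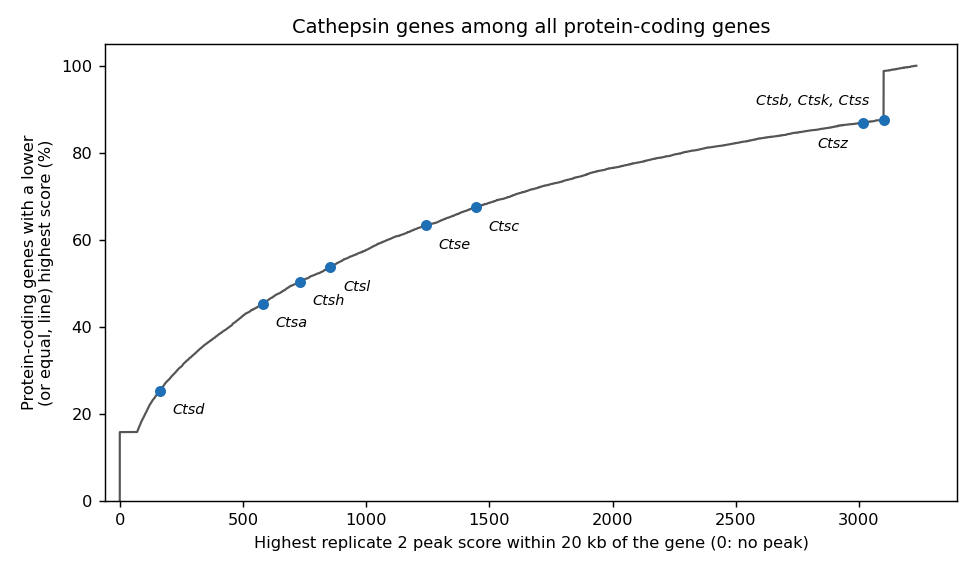
Percentage of the 21887 protein-coding genes (line, cumulative, vertical axis) whose highest replicate 2 score within 20 kb (horizontal axis, 0 where there is no peak) is at or below a given value. Points mark the cathepsin genes at the share of genes with a lower value, from Ctsd at 25.3% to Ctsb, Ctsk and Ctss at 87.6%. The step at 3100 is the genes tied at that score, and the highest score over all genes is 3233. The value at Ctsk is a peak nearer to Ctss, that at Ctsa lies in Pltp and that at Ctsh is nearer to Rasgrf1.

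Gene starts were given by the RefSeq promoter table for 7 of the 10 genes. Ctsb, Ctse and Ctsh are not among them. A replicate 2 peak lay over a start in 5 of the 7, Ctsa, Ctsc, Ctsd, Ctss and Ctsz, against 35.4% of the 17492 protein-coding genes with a start in that table. No replicate 3 peak lay over a start of these 7 genes. The 250 bases before the start of 4 genes are printed. Each of these windows was covered over its full length by a replicate 2 peak. The peaks scored 3017 at Ctsz, 1483 at Ctss, 1445 at Ctsc and 129.97 at Ctsd. The window of the second Ctsa start was also covered in full, by a peak of 216, and is not printed. The printed windows are RefSeq sequences of GRCm38.p6 written 5′ to 3′ in the direction of the gene. Capitals mark GGAA, the ETS core, or TTCC, the same letters on the other strand, the longer PU.1-type site GAGGAAGT or its reverse ACTTCCTC, which contains it, and the E-box CACGTG.
Ctss, chr3:95526536-95526785, forward strand: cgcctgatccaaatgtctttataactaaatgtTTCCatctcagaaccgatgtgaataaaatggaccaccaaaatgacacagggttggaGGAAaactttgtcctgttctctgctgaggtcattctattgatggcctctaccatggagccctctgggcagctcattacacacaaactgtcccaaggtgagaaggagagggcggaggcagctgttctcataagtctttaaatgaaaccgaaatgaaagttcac
Ctsc, chr7:88277835-88278084, forward strand: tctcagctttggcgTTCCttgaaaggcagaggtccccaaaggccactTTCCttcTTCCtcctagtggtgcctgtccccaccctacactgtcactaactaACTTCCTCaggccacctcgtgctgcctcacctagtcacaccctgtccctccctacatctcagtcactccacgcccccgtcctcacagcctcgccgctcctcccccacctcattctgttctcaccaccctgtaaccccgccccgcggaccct
Ctsz, chr2:174439040-174439289, reverse strand: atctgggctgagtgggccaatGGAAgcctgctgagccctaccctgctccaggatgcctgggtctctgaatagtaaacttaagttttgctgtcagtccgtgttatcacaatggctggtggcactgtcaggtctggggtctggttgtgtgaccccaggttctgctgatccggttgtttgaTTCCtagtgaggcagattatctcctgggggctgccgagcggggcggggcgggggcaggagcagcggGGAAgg
Ctsd, chr7:142387828-142388077, reverse strand: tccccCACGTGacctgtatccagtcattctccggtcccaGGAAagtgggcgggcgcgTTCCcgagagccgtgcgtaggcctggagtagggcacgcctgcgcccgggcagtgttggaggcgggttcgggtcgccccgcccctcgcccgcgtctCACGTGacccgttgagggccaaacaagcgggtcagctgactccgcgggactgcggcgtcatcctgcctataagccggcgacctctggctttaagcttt

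The bases GGAA were found on either strand in all 8 windows of the 7 genes (Ctsa has 2 starts in the table), with 1 to 5 matches each. They are common, present in 93.4% of the 32851 windows of the same length in the table, with a median of 3 matches. The site GAGGAAGT was found in the Ctsc window alone, on the reverse strand from 151 to 144 bases before the start, and in 2.44% of all windows. The shorter AGGAAG, searched on both strands, was in the Ctsc window, where 1 of its 2 matches lies inside that longer site, and in the Ctsk window, against 29.5% of all windows. Ctsk had no peak over its start. Ctss, with a score of 1483 close to the 1445 of Ctsc, and Ctsz, at 3017, had neither of these longer sites in the 250 bases. The peaks over these starts, 1086 bp wide at Ctss and 3034 bp at Ctsz, reach beyond the windows and were not searched there. Such matches describe letters in these windows and are not measured binding sites.

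The E-box CACGTG is the core of the element through which Tfeb and related factors act on lysosomal genes. It was found in the windows of Ctsd, with 2 matches from 245 to 240 and from 98 to 93 bases before the start, of Ctsl, and of the second Ctsa start, where it ended 7 bases before it. That is 3 of 8 windows, 2 of which belong to Ctsa, against 6.02% of all windows. The windows are few, Ctsb, Ctse and Ctsh have none, and the difference was not tested. The Ctsl and the first Ctsa window were not under a peak. Content of G and C ran from 43.2% in the Ctsk window to 67.2% in that of Ctsd, around a median of 52.4% over the table. The E-box contains C followed by G. The Ctsd window had 27 such pairs, the Ctsl window 7 and the second Ctsa window 6, against a median of 6 over the table. The E-box share was not adjusted for this.

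Ctss encodes cathepsin S, the main protease of the last step of invariant chain breakdown in B cells and dendritic cells. It had the region of the 10 genes with the highest replicate 3 score. The peak scored 3100 in replicate 2 (chromosome 3, 95520624 to 95521997) and 283 in replicate 3 (95520840 to 95521846), and 18.2% of replicate 3 peaks reached at least that score. It lay 6.2 to 4.8 kb before the Ctss start in replicate 2, outside the gene. A second replicate 2 peak covered the start (95526223 to 95527308, score 1483), and another, 1872 bp wide, lay 2.8 to 4.7 kb after it (score 1041). Replicate 3 had no peak at either. Weaker replicate 2 peaks before the start scored 77.1 and 129.

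Ctsk encodes cathepsin K, the collagen-degrading protease of osteoclasts, and ends before Ctss starts on the same strand. Of its 6 replicate 2 peaks, 4 also lie in the Ctss window. The shared region lay between both genes, its centre 5.5 kb from Ctss and 11.9 kb from Ctsk. Counted for the nearest gene only, Ctsk had no shared region. Inside Ctsk, replicate 2 had a single peak, with a score of 235, at 3.5 to 4.5 kb after the start (95502739 to 95503754). The remaining peak (score 143) lay in Arnt, 19.6 kb from Ctsk.

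Ctsb encodes cathepsin B, an abundant lysosomal cysteine protease with both endopeptidase and carboxydipeptidase activity. Its shared region lay inside the gene span, at chromosome 14, 63128668 to 63129773, with a score of 3100 in replicate 2 and of 239.5 in replicate 3. Exons and introns are not separated in the gene table. A further replicate 2 peak inside the gene scored 1791 (63131359 to 63132448), and one beginning 73 bases inside the lower-coordinate end of the span scored 529.6. Outside that end lay 4 more, the farthest at 17.1 kb with a width of 2704 bp and a score of 1892 (63102611 to 63105314), then peaks of 213, 1166 and 142. Ctsb was the nearest protein-coding gene to all 7, and each had an interval in the merged list.

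Ctsz encodes cathepsin Z, a carboxypeptidase also known as cathepsin X. A replicate 2 peak 3034 bp wide covered its start (chromosome 2, 174437135 to 174440168, score 3017), and 0.35% of replicate 2 peaks were at least as wide. The replicate 3 peak (174437319 to 174438272) covered only the part from 0.8 to 1.7 kb after the start, inside the gene. Its score of 73.6 is near the lowest of its list, where 95.5% of peaks scored at least as high. With a score of at least 100 required in both libraries, or an overlap of 50% of both peaks, Ctsz no longer had a shared region. A separate replicate 2 peak before the start scored 553.6. Ctsz was the only gene of the 10 with a shared region within 1 kb of a start, or of either span end where the table gives no start, against 4.2% of protein-coding genes.

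**Figure D3:**
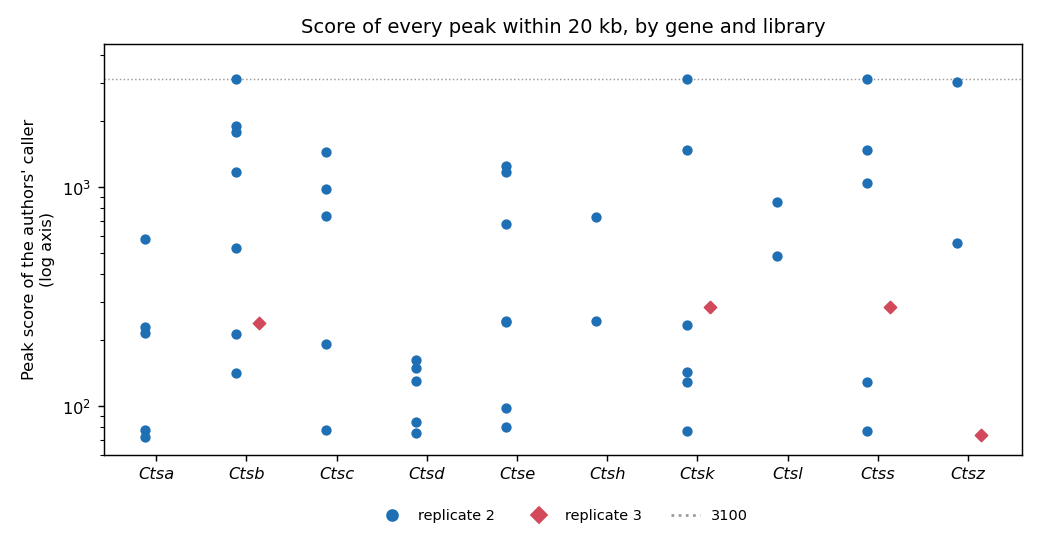
Score of every peak within 20 kb (vertical log axis, no unit) for each cathepsin gene, replicate 2 as blue circles and replicate 3 as red diamonds, with a dotted line at 3100. Replicate 3 has points at Ctsb (239.5), Ctsk and Ctss (283, the same peak) and Ctsz (73.6), and Ctsd has no point above 162.

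Ctsc encodes cathepsin C, the dipeptidyl peptidase that activates the serine proteases stored in granules of neutrophils, mast cells and cytotoxic lymphocytes. Replicate 2 had peaks over its start (chromosome 7, 88276809 to 88278519, score 1445) and from 2.7 to 1.5 kb before it (88275412 to 88276586, score 977). Another lay 2.3 kb past the other end of the gene (88318148 to 88319589, score 741). Peaks inside the gene scored 78.1 and 191. Replicate 3 had none in the window.

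Ctsh and Ctsl held the fewest peaks. Ctsh, an aminopeptidase that also takes part in surfactant protein processing, had a peak of 245 inside the gene (chromosome 9, 90059532 to 90060565). Its other peak, of 731, reached 322 bp into the window and was nearer to Rasgrf1. Ctsl, the endopeptidase that cleaves invariant chain in the thymic epithelium, had no peak in its span. Its peaks of 482 and 855 lay beyond the far end, 19.9 to 22.9 kb after the start (chromosome 13, 64347633 to 64350650). Neither gene had a replicate 3 peak.

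Both aspartic proteases lacked a replicate 3 peak. Ctsd, the main aspartic protease of lysosomes, had 5 replicate 2 peaks, all scored between 75.1 and 162. The peak over its start (chromosome 7, 142386942 to 142388495) scored 129.97, a score reached by 70.0% of replicate 2 peaks. The other 4 lay 2.1 to 12 kb before the start. Ctse, a protease of endosomes rather than of mature lysosomes, had 4 peaks inside the gene on chromosome 1, with scores of 1243 (131657537 to 131658702), 246, 1175 (131671977 to 131673163) and 242. The peaks beyond the higher-coordinate end scored 97.6, 80.6 and 678, and the last of these lay in Rab7b.

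Ctsa, which protects neuraminidase 1 and beta-galactosidase in a lysosomal complex besides cleaving peptides, shares its chromosome 2 window with 6 other protein-coding genes. Replicate 2 peaks inside the gene scored 216 (164833058 to 164834237, over the second start) and 229.7. The first of these also touches Neurl2. The highest, of 581, lay in Pltp, a phospholipid transfer protein gene, the peak of 71.9 in Zswim1, and the peak of 78.1 where Zswim3 and Acot8 overlap.

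A shared region was found at 4 of the 7 cysteine proteases, at neither of the 2 aspartic ones and not at Ctsa. These numbers are too small to set the classes apart.

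High replicate 2 scores did not all carry over to replicate 3. Of the 42 distinct peaks, 3 (7.14%) overlapped a replicate 3 peak, against 8.24% of all replicate 2 peaks. Both peaks at 3100 did, as did 97.1% of all peaks at or above 3100. Of the 9 that scored from 1000 to under 3100, a range chosen after their values were seen, the Ctsz peak alone did (11.1%), against 33.5% of all peaks in that range. The others were at Ctsb (1892, 1791 and 1166), Ctss (1483 and 1041), Ctsc (1445) and Ctse (1243 and 1175). These scores lie in the lower part of the range, and the share of all peaks at like scores was not counted, so the 33.5% is not a like comparison.

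The merged list held 33 of the 42 peaks (78.6%, against 66.5% of all replicate 2 peaks). The 9 left out scored 71.9 to 129, and those held scored 129.97 to 3100, so at these genes the groups did not overlap. Genome-wide there is no such sharp limit, since 30.1% of replicate 2 peaks scored from 120 to under 140 were held.

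Some peaks lay close to the edge of the window. Just inside it lay the Ctsk peak in Arnt (143, gap of 19.6 kb) and the Ctsh peak (731, 19.7 kb). Just outside lay a Ctss peak relative to Ctsk (1041, 20.2 kb) and a region 21.1 kb past Ctsa with 3100 in replicate 2 and 1594 in replicate 3 (chromosome 2, 164862178 to 164863359 in replicate 3). Only 0.632% of replicate 3 peaks scored that high. Its nearest gene was Pltp, at 5.1 kb.

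Other genes of the pathway were taken from 8 lists with 68 genes, all matched. Of these, 29 had a shared region in the same window (42.6%, against 24.2% of protein-coding genes). The lists were chosen with earlier results of these data known, and some neighbouring genes count through the same region. The share is therefore a description of these lists and not independent support for a difference. The cathepsins outside the 10 genes had one at 2 of 12, Ctso (152 in replicate 3) and Ctsw, and the other 10, Ctsf, Ctsg and 8 placental cathepsins of chromosome 13, had none. The Ctsw region reached the window through its replicate 2 peak only, at 19.3 kb, and its replicate 3 peak, of 91.0, lay outside. A replicate 2 peak was near 6 of these 12, against 84.2% of protein-coding genes.

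Among inhibitors of cysteine cathepsins, 2 of 7 had a shared region. Cst3, the gene of secreted cystatin C, had 3, the best at one end of the gene (chromosome 2, 148874877 to 148876515) with 3100 in replicate 2 and 385.5 in replicate 3. Stfa1, a stefin, had one scored 143 in replicate 3, 15.7 kb from the gene. Of 6 genes of the mannose 6-phosphate and sorting machinery, Gnptab, a subunit of the enzyme that makes the tag, had one (295, at 8.8 kb). Of 4 MiT factors, Tfeb, which drives lysosomal genes, had 2 inside the gene, at chromosome 17, 47781186 to 47782911, with 686 in replicate 3, and 47753856 to 47755193, with 163.8. Its relatives Tfe3, Mitf and Tfec had none.

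Other acid hydrolases had shared regions at 8 of 15, among them, by replicate 3 score, Lipa (247), Lgmn (219, 11.3 kb from the gene) and Hexa (209.9). Lipa breaks down cholesteryl esters, and Lgmn is the asparaginyl endopeptidase that processes several cathepsins. Neu1 and Glb1, the partners of Ctsa, had none. Membrane proteins and cofactors had them at 6 of 10, led by Psap (1059), the saposin precursor, Cd63 (453), Cd68 (417) and Npc2 (247), and had none at Lamp1, Lamp2, Mcoln1 and Npc1. Proton pump genes had them at 3 of 6, Atp6ap1 (161), Atp6v1a (156) and Atp6v0d1 (101.8). Atp6v0a1, Atp6v1b2 and Atp6v1h had none.

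Genes that act with Ctss in class II presentation had them at 6 of 8. H2-DMa and H2-DMb1, which encode the peptide editor, share their best region (226 in replicate 3), and each had 1 more of its own, of 111 at H2-DMa and of 83.3 at H2-DMb1. H2-Ab1 had one of 88.8, and H2-Aa and H2-Eb1 share one of 86.4. Cd74, the invariant chain itself, had one of 79.0 at 18.5 kb. All of these regions lay outside the genes they are counted for, with gaps from 3.0 kb at H2-DMa to that of Cd74. The gene nearest to each is not given here. Ciita and Ifi30 had none. The Ctss region, at 283, scored above all of these in replicate 3.

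**Figure D4:**
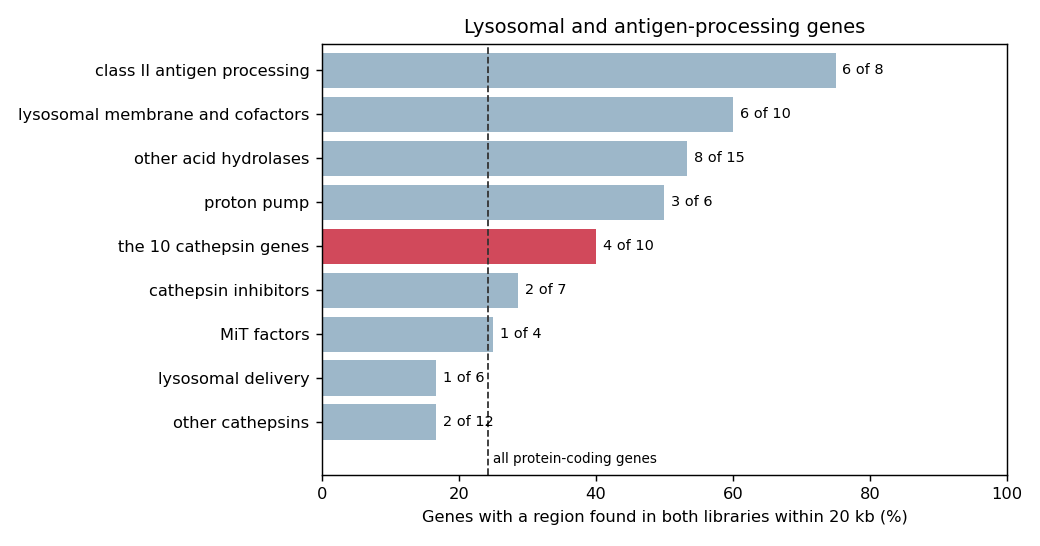
Percentage of genes with a region found in both libraries within 20 kb (horizontal axis) for the 10 cathepsin genes in red and 8 related lists in blue, with the number of genes beside each bar and a dashed line at the 24.2% of all protein-coding genes. The cathepsin genes (4 of 10) lie between the proton pump genes (3 of 6) and the cathepsin inhibitors (2 of 7).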

How the data were processed

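The files were 1 peak list for each of the 2 PU.1 libraries and a merged list of the series. Per the submitters' processing notes, Trim Galore, Bowtie and MACS 1.4.1 were used on build mm10, with no settings given in the sources used here. The deposited score in column 5 was left as the authors made it, and the merged list, with a score of 0 in every row, was used for positions. Depth is not analysed here.

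BED starts were converted to 1-based coordinates. Lists were joined to RefSeq spans of GRCm38.p6 in Python 3.11.15 with pandas 2.3.3, and overlap functions were tested on simulated data. Overlaps needed 1 bp. Motifs were matched exactly on both strands. No test was run, because 2 libraries of 1 condition give no contrast, and counts are set beside all protein-coding genes outside the mitochondrial genome. All 10 genes are named, with up to 4 genes of each other list by replicate 3 score and genes without a shared region where there are 4 or fewer. A gene that this rule would name is not reported here. Genes named beyond this were chosen after their values were seen. The genes, lists and rules were chosen with earlier results of these data known. Alternatives were other windows, a score of at least 100, 50% overlap, peak centres, the nearest gene, other genes as background and each library alone.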

Additional observations from a re-analysis of the deposited data

How the results depend on the processing

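Of the 41 alternative counts, 30 stayed within 1.5 times the value reported and 11 did not. Shared regions lay near 8 genes with 50 kb on each side and near 2 in the gene spans alone, as did replicate 3 peaks (8 and 2), and the distinct shared regions numbered 9 with 50 kb. With either library left out, 4 to 10 genes and 3 to 42 distinct peaks were counted, the higher values without replicate 3. Within 1 kb of a start the count was 1 with replicate 3 alone (3.92% of protein-coding genes) and 7 with replicate 2 alone (41.7%), 2 within 5 kb (7.48%), and 0 both with 50% overlap of both peaks (3.26%) and with scores of at least 100 (2.75%), under which the Ctsz region was lost. Counts of genes with replicate 2 peaks or merged intervals were 9 or 10 under all alternatives run for them, with Ctsl the gene lost. The shares of protein-coding genes moved more, from 61.4% in the spans alone to 92.6% with 50 kb for replicate 2 peaks, and from 53.5% to 85.9% for merged intervals. Replicate 3 has 6169 peaks against 74494 in replicate 2, so a gene without a replicate 3 peak is not shown to lack PU.1.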

Other observations

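Replicate 3 peaks farther out, from 20 to 100 kb beyond the gene, were looked at after the data were seen. Ctsb, Ctsl and Ctsz had none there, so Ctsl had no replicate 3 peak within 100 kb. Ctsd had 1, scored 784, at 54.5 kb in Tnni2, a muscle troponin gene, and 2.51% of replicate 3 peaks scored at least as high. Ctse had 1 of 138 at 24.7 kb inside Rab7b, a small GTPase gene of late endosomes, with 3100 in replicate 2. Ctsh had 3, the nearest at 29.1 kb inside Morf4l1, a chromatin factor gene, scored 142. Ctsc had 4, of 74.8 to 172.5, from 41.0 to 75.4 kb away, and for 3 of them it was the nearest protein-coding gene. Past Ctsa, a second region at 27.1 kb scored 569.7, nearest to Pcif1. On the far side of Ctss, the nearest replicate 3 peaks were at 88.6 and 93.9 kb (473.6 and 141), nearest to Mcl1, a survival gene of the Bcl2 family.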
